A study of Mus musculus with 6 samples.

Results

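The Z-disc and stretch-responsive adaptor genes described here are 10 genes, taken by symbol from the deposited table of 23404 mouse genes: Ankrd1, Ankrd23, Fhl1, Fhl2, Csrp3, Tcap, Ldb3, Nrap, Xirp1 and Xirp2. All 10 were found and all 10 passed the filter on low values. Messenger RNA of cardiomyocyte preparations from C57BL/6J mice had been sequenced after a sort on green autofluorescence (the FITC channel) and forward scatter (FSC, which grows with particle size). One gate was FITChigh and FSCdim (FITChigh below), the other FITCdim and FSChigh (FITCdim below), with 3 libraries each, which the series text calls biological replicates. The labels name no allele, agent or age for either gate, and they do not say how many animals a library holds. By its title the study concerns the purification of ventricular cardiomyocytes, and the comparison asks how the RNA of the gates differed.

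The Z-disc anchors the thin filaments of neighbouring sarcomeres and also senses mechanical load. Adaptor proteins with LIM domains, ankyrin repeats or Xin repeats sit there, at the intercalated disc or at the titin spring, and several of them also enter the nucleus, where they act on transcription. In the heart, Ankrd1 in particular is known as a gene that stretch and pressure overload induce. In these libraries the 10 genes were abundant in both gates and differed little between them. None passed the test across all genes, which used no block. With the title tag that libraries of both gates share as a replicate block, 7 of the 10 were higher, against 8.24% of all genes. In that fit 14 of 27 tested genes of other Z-disc proteins were also higher. The share among genes of similar abundance was not computed for it. The labels do not say what the tag marks. On the deposited scale 9 of the 10 had a higher mean in FITChigh. That direction turned in Ankrd1, Ankrd23 and Xirp2 with quantile normalization and in Ankrd23 when every library was set to one total. It turned in all 9 when every library was set to one level of cardiomyocyte markers. With quantile normalization or one total, the rises that kept their direction were smaller, and none passed the test.

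The starts of 3 of these genes are printed to show annotated regulatory sequence, beside that of Lasp1, a paralog of Nrap that was far lower in FITChigh. Each window holds 250 bases before and 50 bases from a RefSeq start site on (build GRCm38.p6, the upstream-most start of the gene; the start used in these libraries was not tested). Capitals mark matches, on either strand, to the MCAT motif of TEAD factors (CATTCC), the motif AGATAA of GATA factors, the core promoter box TATAAA, the MEF2 motif and the CArG box of serum response factor.
Ankrd1, chr19:36119795-36120094, minus strand: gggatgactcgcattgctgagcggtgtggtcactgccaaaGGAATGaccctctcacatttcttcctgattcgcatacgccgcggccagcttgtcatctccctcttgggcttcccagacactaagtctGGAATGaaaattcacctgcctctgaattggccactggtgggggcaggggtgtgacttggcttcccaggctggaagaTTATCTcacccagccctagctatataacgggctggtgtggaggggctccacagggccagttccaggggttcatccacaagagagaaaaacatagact
Fhl2, chr1:43196712-43197011, minus strand: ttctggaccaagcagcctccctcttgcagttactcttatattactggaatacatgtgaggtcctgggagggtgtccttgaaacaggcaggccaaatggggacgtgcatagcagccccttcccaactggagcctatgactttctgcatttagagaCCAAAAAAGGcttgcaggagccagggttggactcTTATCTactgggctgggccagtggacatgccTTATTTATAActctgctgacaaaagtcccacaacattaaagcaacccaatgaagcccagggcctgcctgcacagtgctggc
Ldb3, chr14:34588632-34588931, minus strand: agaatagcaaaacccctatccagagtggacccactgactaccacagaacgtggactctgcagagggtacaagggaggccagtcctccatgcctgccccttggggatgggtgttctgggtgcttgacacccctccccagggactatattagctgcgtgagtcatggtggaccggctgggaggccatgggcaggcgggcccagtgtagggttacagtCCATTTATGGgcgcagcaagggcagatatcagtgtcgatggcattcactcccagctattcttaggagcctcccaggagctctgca
Lasp1, chr11:97799315-97799614, plus strand: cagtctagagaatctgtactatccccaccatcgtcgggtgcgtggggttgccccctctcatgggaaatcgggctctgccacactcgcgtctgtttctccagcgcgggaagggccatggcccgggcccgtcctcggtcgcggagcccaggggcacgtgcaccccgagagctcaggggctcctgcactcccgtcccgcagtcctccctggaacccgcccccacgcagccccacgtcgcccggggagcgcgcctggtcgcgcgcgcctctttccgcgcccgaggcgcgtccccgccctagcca

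Counted from the start site, the MCAT matches of Ankrd1 began at positions -210 and -123 and its GATA match at -47. Fhl2 had a CArG match at -96, a GATA match at -62 and a MEF2 match at -31, and its TATA match at -28 lay inside the MEF2 match. The window of Ldb3 held a CArG match at -35 and that of Lasp1 held none of the 5 motifs. The windows of the adaptor genes Nrap and Csrp3 also held none of the 5, so this does not set Lasp1 apart. Of the 10 genes, 8 had at least 1 window in the RefSeq table, 13 windows in all, of which some overlap. A CArG match stood in 5 of the 13, from Fhl1, Fhl2 and Ldb3, which is 38.5%, against 1.63% of all 32851 windows of the same length. The windows of Ldb3 overlap and hold the same match, so that match is counted more than once. MEF2 matches stood in 15.4% against 3.19%, MCAT matches in 23.1% against 14.7% and GATA matches in 23.1% against 11.2%. Other Z-disc genes had CArG matches in 10% of 30 windows, MEF2 matches in 16.7% and MCAT matches in 36.7%, the last pair above the shares of the adaptor genes. A match is a string of letters and does not show that a factor binds there. The window of Lasp1 held 34 CpG. The median was 16 CpG in 18 windows of 12 paralogs, 6 in the 13 windows of the adaptor genes and 7 in all windows.

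The deposited value is a read count per gene that the authors adjusted to a common library size. It was tested as log2(value + 1), and a log2 fold change is the difference of FITChigh minus FITCdim on that scale, so a positive one is higher in FITChigh. Of 12907 genes tested with limma, 2.51% were higher and 13.5% were lower at an adjusted p below 0.05 (324 and 1748 genes, against 467 and 1213 with quantile normalization and 41 and 2189 with one common total). Of the 10 adaptor genes, 0 were higher and 0 were lower in this fit without a block, with adjusted p-values from 0.075 to 0.93. With the replicate block 7 were higher. At an unadjusted p below 0.05, 6 of the 10 were higher, against 8.72% of all genes. That background depends on level: among the 991 genes at least as abundant as the lowest adaptor gene, 35.1% were higher at that unadjusted threshold and 14.2% at the adjusted one. The median log2 fold change was 0.33 over the 10 genes, 0.24 over those 991 genes and -0.01 over all genes tested. In 4 of the 10, Ankrd1, Fhl2, Ldb3 and Xirp1, every FITChigh value lay above every FITCdim value, as in 11.4% of all genes tested and 35.2% of the 991. In none of the 10 did every FITChigh value lie below every FITCdim value, the case in 20.2% of all genes. For that direction the share among the 991 was not computed.

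**Figure D1:**
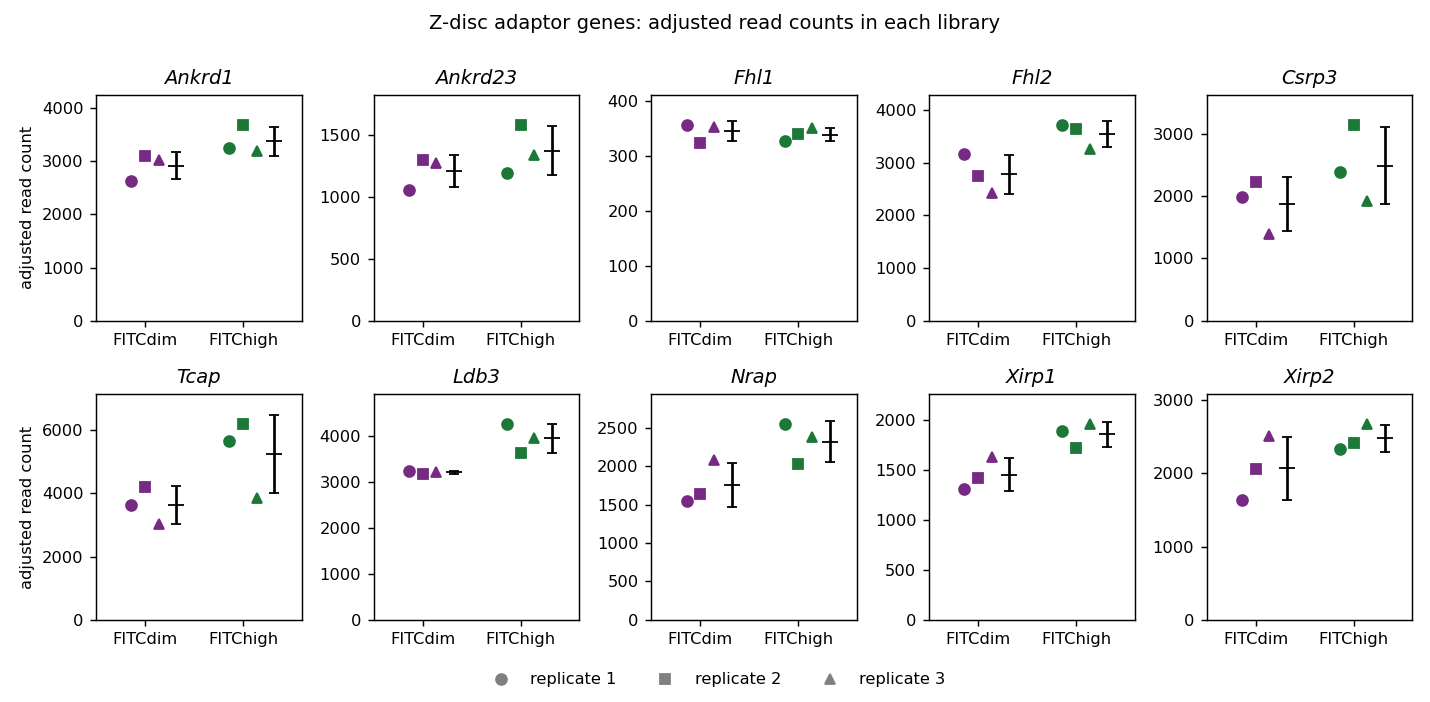
Adjusted read counts (vertical axes, each from 0) of the 10 adaptor genes in the 3 FITCdim libraries (purple) and the 3 FITChigh libraries (green); symbols give the replicate and bars the mean and SD. Ankrd1, Fhl2, Ldb3 and Xirp1 show separate groups, and Fhl1 shows overlapping ranges in a narrow band.

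The ankyrin-repeat proteins bind the elastic region of titin and shuttle to the nucleus. Ankrd1, also called CARP (chromosome 19, 36111961 to 36120099 in mm10), stood at 3251, 3694 and 3194 adjusted read counts in FITChigh replicates 1, 2 and 3 and at 2636, 3097 and 3029 in FITCdim replicates 1, 2 and 3. The groups did not overlap, but the lowest FITChigh value and the highest FITCdim value were close. The log2 fold change of 0.21 (SE 0.14, adjusted p = 0.36) had a 95% interval of -0.09 to 0.51, which is 0.943-fold to 1.42-fold. A 2-fold difference in either direction therefore lay outside the interval. Ankrd23, a relative that also binds titin (chromosome 1, 36530188 to 36536883), stood at 1195, 1586 and 1338 in FITChigh and at 1060, 1295 and 1275 in FITCdim. Its groups overlapped, and replicate 1 was the lowest library of both gates. At 0.18 on the log2 scale, the difference did not pass the test (SE 0.14, adjusted p = 0.46). Per kilobase of exon, Ankrd1 stood at 2.32 ± 0.20 times Ankrd23 in FITChigh and at 2.26 ± 0.06 times in the other gate (SD over 3 libraries per gate; p = 0.9 by an exact permutation test, two-sided). The third gene of this family, Ankrd2, which is known from skeletal muscle, was close to the filter at 0.756 to 1.48 adjusted read counts in FITChigh and 0.045 to 1.26 in FITCdim.

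The FHL proteins are built of LIM domains and link titin and integrin sites to signalling. Fhl2, the heart-enriched form (chromosome 1, 43123074 to 43196984), stood at 3726, 3650 and 3259 in FITChigh and at 3172, 2740 and 2423 in FITCdim. All FITChigh libraries were above all FITCdim libraries, and replicate 3 was the lowest of each gate. The difference was 0.36 on the log2 scale (SE 0.15, adjusted p = 0.11), with a 95% interval of 0.05 to 0.67. Over 18 alternatives the adjusted p of Fhl2 ran from 0.0055, with the replicate block, to 0.72. Fhl1, the form best known from skeletal muscle (chromosome X, 56731787 to 56793346), was the least abundant of the 10 genes. It stood at 327, 340 and 350 in FITChigh and at 358, 325 and 353 in FITCdim. The ranges overlapped almost entirely, and the log2 fold change of -0.02 (SE 0.13, adjusted p = 0.93) had a 95% interval of -0.29 to 0.25. The pair can also be set against each other inside a library, where scaling cancels. Per kilobase, Fhl2 stood at 22.3, 21.04 and 18.2 times Fhl1 in FITChigh and at 17.4, 16.5 and 13.4 times in FITCdim. The groups did not overlap, and the exact two-sided permutation test gave p = 0.1, the smallest value that 3 against 3 libraries allow (0.2 after Benjamini-Hochberg adjustment over 6 such ratios, chosen after the values were seen). Fhl3 stood at 17.8 to 29.7 in FITChigh and 18.1 to 18.6 in FITCdim, and Fhl5 was listed at 0 in all 6 libraries.

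Csrp3 (muscle LIM protein) and Tcap (telethonin, which caps the end of titin at the Z-disc) are partners in the stretch sensor of the Z-disc. Csrp3 (chromosome 7, 48830398 to 48848033) stood at 2384, 3146 and 1926 in FITChigh and at 1979, 2230 and 1390 in FITCdim. Replicate 2 was the highest and replicate 3 the lowest library of both gates, so that the groups overlapped. The log2 fold change was 0.41 (SE 0.19, adjusted p = 0.18). Over 18 alternatives the adjusted p of Csrp3 ran from 0.0021, with the replicate block, to 0.72. Tcap (chromosome 11, 98383811 to 98384953) stood at 5650, 6200 and 3854 in FITChigh and at 3623, 4212 and 3023 in FITCdim. Within each gate the order of the libraries was that of Csrp3, and FITChigh replicate 3 fell below FITCdim replicate 2. Tcap had the largest log2 fold change of the 10 genes, 0.52 (SE 0.19, adjusted p = 0.075; 95% interval 0.12 to 0.91). Several other fits called Tcap higher: limma with robust empirical Bayes (adjusted p = 0.040), limma-voom fitted to the recovered reads (0.036, an alternative added once the data had been seen), the fit without FITChigh replicate 3 (0.013), the fit without FITCdim replicate 2 (0.034) and, also added, the fit without replicate 3 of both gates (0.013). Over 18 alternatives its adjusted p ran from 5.1e-04, in the fit with a replicate block whose effect the closing section gives, to 0.89. Set against titin per kilobase, Tcap stood at 28.0 ± 10.01 times in FITChigh and at 23.7 ± 8.04 times in the other gate (SD over 3 libraries per gate; p = 0.6 by the same exact permutation test).

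Ldb3, known as Cypher or ZASP, carries a PDZ domain that holds alpha-actinin and LIM domains that bind protein kinases. It (chromosome 14, 34526603 to 34588682) stood at 4264, 3635 and 3945 in FITChigh and at 3237, 3170 and 3217 in FITCdim. The FITCdim libraries were nearly level and all lay below the FITChigh libraries. On the log2 scale the difference was 0.30 (SE 0.14, adjusted p = 0.17). Over 18 alternatives the adjusted p of Ldb3 ran from 0.018, with the replicate block, to 0.95. Nrap, a nebulin relative with a LIM domain that acts in myofibril assembly and at the intercalated disc (chromosome 19, 56320035 to 56390037), stood at 2555, 2024 and 2380 in FITChigh and at 1545, 1645 and 2082 in FITCdim. FITChigh replicate 2 fell just below FITCdim replicate 3, which alone made the groups overlap. The log2 fold change was 0.41 (SE 0.15, adjusted p = 0.080). Nrap was called higher without FITChigh replicate 2 (adjusted p = 0.049), without FITCdim replicate 3 (0.019), without replicate 3 of both gates (0.029) and after a length correction described below (0.028), the last pair tried after seeing the data. Its adjusted p over 18 alternatives ran from 0.0073, again with the replicate block, to 0.57.

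The Xin proteins bind and bundle actin and sit at the intercalated disc of cardiomyocytes. Xirp1 (chromosome 9, 120013755 to 120023598) stood at 1892, 1719 and 1967 in FITChigh and at 1309, 1422 and 1637 in FITCdim. The groups did not overlap, and replicate 3 was the highest library of both. The log2 fold change was 0.36 (SE 0.13, adjusted p = 0.087; 95% interval 0.07 to 0.64). It was called higher without FITCdim replicate 3 (adjusted p = 0.044) and after the length correction (0.026), within a range of 0.0065, with the replicate block, to 0.75 over 18 alternatives. Xirp2 (chromosome 2, 67446002 to 67526614) stood at 2336, 2410 and 2678 in FITChigh and at 1638, 2054 and 2504 in FITCdim. The FITCdim libraries were spread widely, and replicate 3 of that gate lay above replicates 1 and 2 of FITChigh. Its log2 fold change was 0.28 (SE 0.16, adjusted p = 0.27). Over 18 alternatives the adjusted p of Xirp2 ran from 0.037, with the replicate block, to 0.96. Per kilobase, Xirp1 stood at 1.54 ± 0.10 times Xirp2 in FITChigh and at 1.47 ± 0.15 times in the other gate (SD over 3 libraries per gate; p = 0.4 by the same exact permutation test).

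Levels of different genes were compared as adjusted read counts per kilobase of merged exons in the GENCODE annotation, a length that exceeds that of a single transcript where a gene has several. The order of the 10 genes by mean level was the same in both gates. Tcap led, with 5522 ± 1294 per kilobase in FITChigh and 3818 ± 627 in the other gate (here and below, SD over 3 libraries). Fhl2 followed at 1869 ± 132 and 1464 ± 198, and Ankrd1 at 1171 ± 94.8 and 1012 ± 86.2. In both gates the libraries of Tcap lay above those of Fhl2 and the libraries of Fhl2 above those of Ankrd1. Csrp3 came next at 930.5 ± 231 and 699 ± 161, and its libraries overlapped those of Ankrd1 in FITChigh and those of Ldb3 in FITCdim. Ldb3, Ankrd23 and Nrap stood at 647, 509 and 421 in FITChigh, and the libraries of Ankrd23 overlapped those of Nrap there. Xirp1 at 318 and Xirp2 at 207 were lower, with separate ranges. Fhl1 was the lowest, at 91.3 ± 3.10 in FITChigh and 92.9 ± 4.85 in FITCdim.

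Several paralogs of the adaptor genes are best known from skeletal muscle or from other cell types. Of 15 paralogs of the 10 genes in the table, 14 were tested: 3 were lower in FITChigh, 0 were higher and 11 did not pass, against 13.5% lower and 2.51% higher over all genes, with a median log2 fold change of -0.10. Lasp1, an actin-binding LIM protein of the nebulin family found in many cell types, fell the most. It stood at 16.1, 30.8 and 21.4 adjusted read counts in FITChigh and at 116, 101 and 105 in FITCdim, without overlap (log2 fold change -2.23, SE 0.24, adjusted p = 6.9e-06). Csrp1, the form of Csrp3 found in smooth muscle and other cells, stood at 41.1, 33.1 and 40.7 in FITChigh and at 164, 149.8 and 136 in FITCdim. Every FITCdim library was far above every FITChigh library (-1.94, SE 0.18, adjusted p = 1.8e-06). Both falls passed the test in all 18 alternatives. Pdlim2, a PDZ-LIM relative of Ldb3, fell by 1.92 on the log2 scale (SE 0.51, adjusted p = 0.015) but had at most 6.16 adjusted read counts in any library. Its size depended on the pseudocount, at -2.34 with 0.5 and -0.87 with 5, and was -1.04 with quantile normalization (adjusted p = 0.17). The call was lost under 5 alternatives, among them leaving out any single FITCdim library (adjusted p = 0.074 to 0.086) or FITChigh replicate 2 (0.058). Pdlim5, the most abundant paralog and a partner of Ldb3 at the cardiac Z-disc, stood at 1674 to 1939 in FITChigh and 1312 to 1716 in FITCdim (0.32, adjusted p = 0.15). The nebulin relatives Nebl and Neb stood at -0.02 and -0.15 and did not pass.

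**Figure D2:**
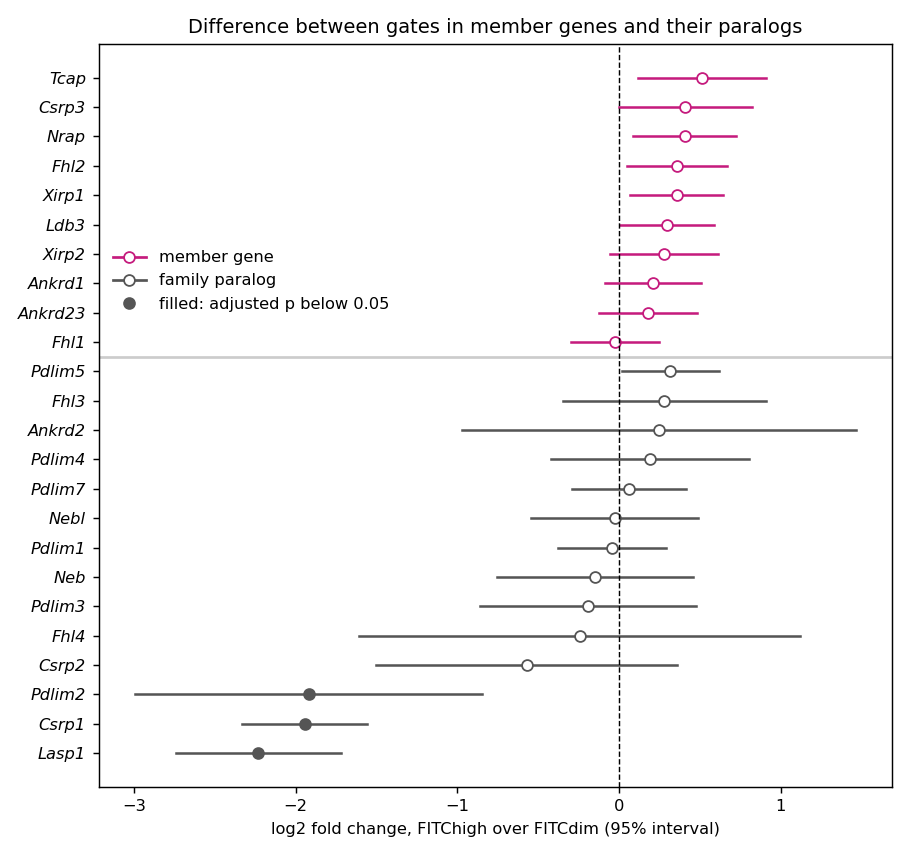
Log2 fold change of FITChigh over FITCdim (horizontal axis, points) with its 95% interval (lines) for the 10 adaptor genes and 14 tested paralogs; filled points passed limma at an adjusted p below 0.05. No adaptor gene is filled, while Lasp1, Csrp1 and Pdlim2 lie between -2.23 and -1.92, the last at a size that depends on the pseudocount.

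Inside a library, per kilobase, Csrp3 stood at 42.5, 69.7 and 34.6 times Csrp1 in FITChigh against 8.85, 10.9 and 7.49 times in FITCdim. Nrap stood at 187, 77.5 and 131 times Lasp1 in FITChigh against 15.7, 19.3 and 23.4 times in FITCdim. In both pairs the gates were far apart, and each exact two-sided permutation test gave p = 0.1, the smallest possible (0.2 after adjustment over the 6 ratios). Markers of other cells moved with these falls. Of 12 endothelial markers 12 fell, with a summed level of 711 to 996 adjusted read counts in FITChigh and 5118 to 5817 in FITCdim, and of 9 tested fibroblast markers 9 fell, with sums of 113 to 141 and 613 to 1130, Tcf21 being at 0 reads in FITChigh. Of 9 immune markers 9 fell (sums of 83.8 to 116 and 406 to 945, Cd52 at 0 in FITChigh), and of 4 tested epicardial markers 4 fell (5.68 to 8.57 and 63.5 to 147). Of 10 markers of smooth muscle and pericytes 8 fell (median log2 fold change -2.29; sums of 1402 to 1852 and 1950 to 2585, mostly Abcc9, which stood at 0.10), and Myh11 stood at 11.3 to 30.3 against 113 to 191. The part of these cells in the falls of Lasp1, Csrp1 and Pdlim2 was not tested. In sorted bulk samples, fewer cells of a type and less RNA per cell cannot be told apart.

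Other proteins of the Z-disc were taken from a list of 29 genes in the table, of which 27 were tested: 5 rose, 0 fell and 22 did not pass, with a median log2 fold change of 0.28. Over all genes tested 2.51% rose. Among the 991 genes at least as abundant as the lowest adaptor gene 14.2% did, with a median of 0.24, close to that of the list. Some genes of the list lay below that level, among them Obsl1 at a mean of 272 adjusted read counts. Nexn, nexilin, an actin-binding protein of the cardiac Z-disc, stood at 2808, 2947 and 3068 in FITChigh and at 1773, 1896 and 2302 in FITCdim (0.57, SE 0.14, adjusted p = 0.0096). Bag3, a co-chaperone that clears damaged filamin at the Z-disc, stood at 2060, 1721 and 1722 against 1208, 1152 and 1423 (0.54, SE 0.14, adjusted p = 0.012). Neither gene showed overlap between the gates. Obsl1, a cytoskeletal linker, rose by 0.65 (adjusted p = 0.010), and the ubiquitin ligase genes Trim54 and Trim63, which act at the sarcomere, rose by 0.55 (adjusted p = 0.024) and 0.43 (adjusted p = 0.038; Trim63 was named after its values were seen). The count of 5 fell to 1 without FITChigh replicate 1 and to 2 without FITCdim replicate 1. It was 0 with each library scaled to one total, 1 with quantile normalization and 0 with one level of cardiomyocyte markers, where the direction of Bag3, Trim54 and Trim63 turned. Ttn, the most abundant of the list, stood at 0.28 (adjusted p = 0.43), and Actn2, the alpha-actinin to which Ldb3 and Csrp3 bind, at 0.46 (adjusted p = 0.054) without overlap between the gates.

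Genes known to rise with stretch or hypertrophy were set beside all genes tested. Of 14 on the list, all tested, 0 rose, 2 fell and 12 did not pass, against 2.51% higher and 13.5% lower over all genes, and their median log2 fold change was -0.05 against -0.01. Among the 991 genes at least as abundant as the lowest adaptor gene, 14.2% were higher and the median was 0.24. Some genes of the list lay below that level. Nppa, the atrial natriuretic peptide gene, fell (-1.74, SE 0.25, adjusted p = 1.3e-04), as did every other tested gene of the atrial marker list, to which it also belongs (8 of 8 with Nppa). Egr1, an immediate-early factor and the most abundant of the list, fell by 0.41 on the log2 scale (adjusted p = 0.048). That call was lost on leaving out any single library other than FITCdim replicate 2 (adjusted p = 0.058 to 0.18). Nppb, the B-type natriuretic peptide gene, stood at 470, 697 and 548 in FITChigh and 493, 508 and 341 in FITCdim (0.36, adjusted p = 0.20). Ctgf and Cyr61, which like Ankrd1 are known targets of the Hippo factor YAP, stood at 0.01 (adjusted p = 0.97) and 0.34 (adjusted p = 0.12).

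The level of cardiomyocyte markers gives another scale for the values above. The summed level of 16 markers, none of them an adaptor gene, ran from 441405 to 484686 adjusted read counts in FITChigh and from 289596 to 338486 in FITCdim, and 4 of 16 rose and 0 fell (median log2 fold change 0.52). Single markers ranged from 0.12 (Pln) to 0.91 (Cox6a2), so the scale depends on which are summed. Myh6 weighed most, with a mean of 159480 in a mean sum of 470247 in FITChigh and 96706 in 321859 in FITCdim. It did not itself pass the test (0.75, SE 0.32, adjusted p = 0.14). Per 1000 of that sum, Ankrd1 stood at 6.71, 7.62 and 7.24 in FITChigh and at 9.10, 9.18 and 8.95 in FITCdim. Relative to these markers, every FITCdim library was thus above every FITChigh library, where on the deposited scale every FITChigh library had been above. Ldb3 reversed in the same way (7.50 to 8.94 against 9.39 to 11.2). Every FITCdim library was also above in Ankrd23 (2.47 to 3.27 against 3.66 to 3.84) and Fhl1 (0.676 to 0.794 against 0.962 to 1.23), whose gates overlapped on the deposited scale. These 4 of 10 genes compare with 49.5% of all genes tested and 47.2% of the 991 genes, in which every FITCdim value was above every FITChigh value on this scale. Tcap, by contrast, had nearly the same range in both gates, 8.73 to 12.8 and 8.93 to 12.5. Fhl2, Csrp3, Nrap, Xirp1 and Xirp2 overlapped between the gates. When the whole table was refitted on this scale, the median over all genes tested moved to -0.53, 38.1% of genes were lower, and 0.062% were higher, and of the 10 adaptor genes 0 were higher and 1 was lower: Fhl1 (-0.57, SE 0.16, adjusted p = 0.0085), a change close to that median. Ankrd23 (-0.37, adjusted p = 0.053) and Ankrd1 (-0.34, adjusted p = 0.067) did not pass.

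**Figure D3:**
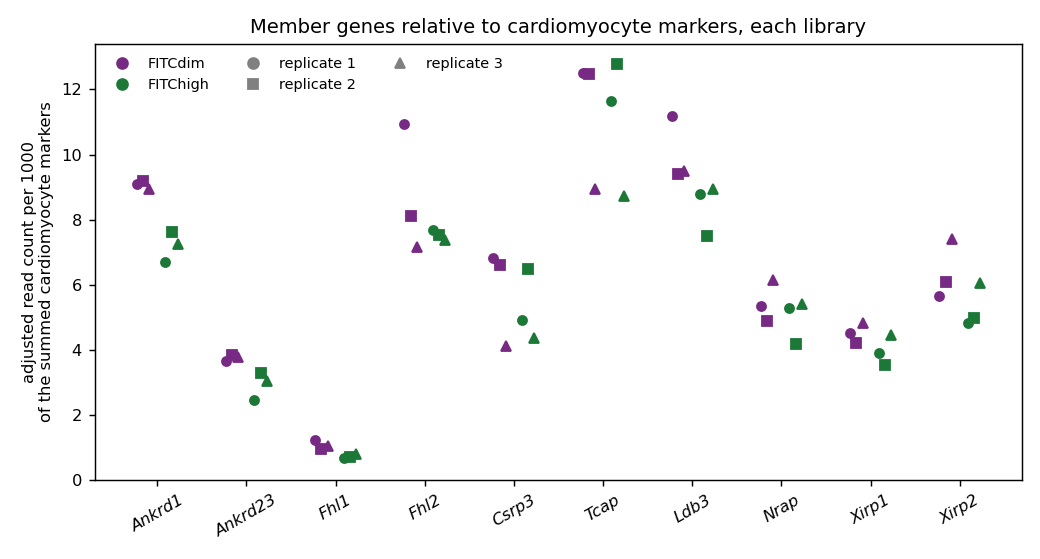
Adjusted read count of each adaptor gene per 1000 of the summed level of 16 cardiomyocyte markers (vertical axis from 0), for the 3 FITCdim libraries (purple) and the 3 FITChigh libraries (green), with symbols for the replicate. Ankrd1, Ankrd23, Fhl1 and Ldb3 are higher in all FITCdim libraries, and Tcap spans 8.73 to 12.8 and 8.93 to 12.5.

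Part of the spread between replicates moved with the length of a gene's exons. Among genes with a mean of at least 100 adjusted read counts, those with up to 1000 bases of exon (61 genes) had a median log2 deviation from their group mean of 0.28 in replicate 2 of each gate, and of -0.31 and -0.25 in replicate 3 of FITChigh and FITCdim. Those over 6000 bases (1346 genes) had medians of -0.10 and -0.09 in replicate 2 and of 0.10 and 0.11 in replicate 3. Tcap, at 948 bases the shortest of the 10, deviated by 0.27 and 0.23 in replicate 2 and by -0.41 and -0.25 in replicate 3. Xirp2, the longest at 11979 bases, deviated by 0.12 and 0.30 in replicate 3. Csrp3, at 2671 merged bases, departed from its class: it deviated by -0.34 and -0.40 in replicate 3, where the class median was -0.07 and -0.04. Ldb3, at 6105 bases in the longest class, deviated by 0.0019 and 0.0042 in replicate 3.

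The difference between the gates moved with length as well. The median log2 fold change was 0.41 in the shortest class, 0.30 at 1000 to 2000 bases, 0.19 at 2000 to 4000, 0.13 at 4000 to 6000 and 0.07 in the longest class. Beside these medians, Tcap stood at 0.52 in the first class and Fhl2 at 0.36 in the second. In the third class Ankrd1 (0.21) and Ankrd23 (0.18) were close to the median, Csrp3 (0.41) above it and Fhl1 (-0.02) below it. Nrap (0.41) and Xirp1 (0.36) in the fourth class and Ldb3 (0.30) and Xirp2 (0.28) in the longest class were above theirs. With a linear slope on log2 exon length removed from each library, an alternative added after seeing the data, Nrap rose by 0.43 (SE 0.13, adjusted p = 0.028) and Xirp1 by 0.39 (SE 0.12, adjusted p = 0.026), and the other 8 did not pass. In that fit 4.11% of 12155 genes were higher. There Xirp2 stood at 0.38 (adjusted p = 0.055), Ldb3 at 0.33 (adjusted p = 0.061) and Tcap at 0.36 (adjusted p = 0.064). Length goes with other features of a gene, and the part of RNA quality or library preparation was not tested.

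**Figure D4:**
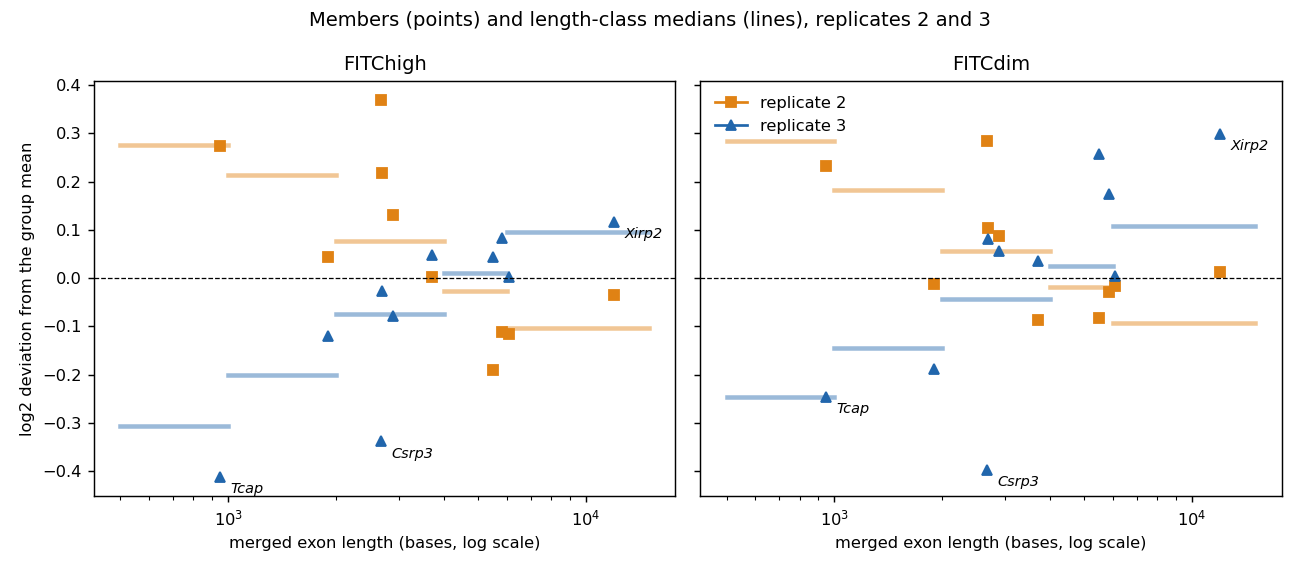
Log2 deviation from the group mean (vertical axis) against merged exon length (horizontal log axis) for the 10 adaptor genes (points) in replicates 2 and 3 of FITChigh (left) and FITCdim (right); thick lines give the median of each length class of genes with a mean of at least 100. The short Tcap is low and the long Xirp2 high in replicate 3 of both gates.

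Among the 10 genes, the patterns of Nrap and Xirp1 over the 6 libraries were the most alike (Pearson r = 0.97 on the log2 scale), followed by Tcap and Csrp3 (0.94), Ankrd1 and Ankrd23 (0.91) and Xirp1 and Xirp2 (0.88). Tcap and Fhl1 were the least alike (-0.63). The points share the gates and the length trend, so these values are descriptions without a test. Of 3482 other named genes with a mean of at least 100, those most like Csrp3 over the 6 libraries were Lrrc10, a leucine-rich repeat protein of the cardiac Z-disc (r = 0.999), and Grcc10 (0.998). For Nrap they were Gpr157 (0.997) and Smyd1 (0.991), a methyltransferase of muscle. For Ankrd1 they were Setd3 (0.997) and Cmss1 (0.994), for Tcap Acaa1a (0.996) and Grpel1 (0.996), and for Ldb3 Trip10 (0.989) and Corin (0.988), the protease that activates atrial natriuretic peptide. Fhl2 was most like Vps4a (0.997) and P4ha2 (0.996), and Xirp1 most like Leng8 (0.996) and Setd8 (0.993). Xirp2 was most like Kank2 (0.995) and Atxn2l (0.991), and Ankrd23 most like Sh3glb1 (0.982) and Bag1 (0.981). The genes most like Fhl1 were Wbp1l (0.975) and Snx13 (0.947). With so many candidates and 6 libraries, high correlations arise readily.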

How the data were processed

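Polyadenylated RNA of 6 sorted mouse samples was sequenced, per the labels' protocols, with a stranded kit and paired reads of 75 bases. Per the submitters' processing notes, STAR 2.5, edgeR and mm10 were used. Neither the counting program nor the annotation nor the treatment of strand is stated in the sources used here, so how reads of close paralogs were divided cannot be checked. Each deposited value is a signal, the read count of a gene after the authors' adjustment for library size. Totals per library still differed: they ran from 2333473 to 2443707 in FITChigh but from 2030583 to 2112872 in FITCdim. Of 23410 lines, 6 were garbled and left out.

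Columns were matched to samples by title, and replicates are numbered in accession order. Inverting the negative binomial quantile adjustment (dispersion 0.0203) gave whole reads within 0.1 for at least 99.99% of values in each library: 1589825 to 2931045 reads in FITChigh and 1705626 to 3345994 in FITCdim. The adaptor genes had 221 to 5972 reads per library, the fewest in Fhl1, whose values therefore carry the largest relative counting error. Its SE in the test without a block, 0.127, was nevertheless the smallest of the adaptor genes.

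The test took the 12907 genes that reached a value of 1 in 3 or more libraries, on the scale log2(value + 1), and used limma-trend (limma 3.58.1, R 4.3.3; two-sided, no block), with Benjamini-Hochberg adjustment over all of them and a threshold of 0.05. Intervals are limma's at 95%. P-values rest on the spread between these libraries alone. The fit was also run on simulated reads. The changes planted there were larger than those of the adaptor genes and no replicate effect was planted, so power at their size was not tested. Positions and exon lengths are from GENCODE M21 (mm10), promoter windows from RefSeq (GRCm38.p6). Members and lists were chosen with earlier results of these data known. Named are all 10 members, any detected paralog (not all are named), and in other lists the most abundant gene and up to 4 called genes with the largest change; Fhl5, Actn2, Nppb, Ctgf, Cyr61 and marker genes were named after their values were seen. Likeness was ranked by Pearson r over 6 libraries among genes with a mean of at least 100. The closing section gives the effect of 18 alternatives.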

Additional observations from a re-analysis of the deposited data

How the results depend on the processing

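The count of 0 adaptor genes higher in FITChigh held with pseudocounts of 0.5 and 5, both other filters on low values, a common total, quantile normalization and the common cardiomyocyte marker sum. It became 1 with robust empirical Bayes, 1 with limma-voom on recovered reads, 2 with the length slope removed and 2 without replicate 3 of both gates, and ran from 0 to 2 on leaving out single libraries. The count lower became 1 with the common marker sum. The cause was not tested.

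With the title tag that libraries of both gates share as a replicate block, 7 adaptor genes were higher (all but Ankrd1, Ankrd23 and Fhl1), against 8.24% of all genes, 1 paralog was higher, 14 other Z-disc genes were higher and 1064 of all genes were higher. For the fit with the block, the share among genes at least as abundant as the lowest adaptor gene was not computed. The deviations of libraries with the same tag correlated at 0.071, 0.13 and 0.17, and each library correlated best with its own tag. One of the 3 correlations is under the 0.1 asked of a pairing, so the main test used no block. A value under that cutoff does not show that the samples were unpaired. Part of the spread was shared across the gates. Genes with up to 1000 bases of exon had median deviations of -0.31 and -0.25 in replicate 3 of FITChigh and FITCdim. The test without a block left such spread in its error. In every adaptor gene the SE was smaller with the block, at 0.084 against 0.19 in Csrp3 and 0.096 against 0.13 in Fhl1.

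Direction depended on scaling. With the common marker sum, the log2 fold change turned to -0.34 in Ankrd1, -0.37 in Ankrd23, -0.19 in Fhl2, -0.14 in Csrp3, -0.033 in Tcap, -0.25 in Ldb3, -0.14 in Nrap, -0.19 in Xirp1, -0.27 in Xirp2, -0.0081 in Bag3, -0.11 in Trim63 and -0.0032 in Trim54. With quantile normalization it turned to -0.083 in Ankrd1, -0.10 in Ankrd23 and -0.015 in Xirp2, and with a common total to -0.026 in Ankrd23. The other rises shrank under both scalings. The largest, that of Tcap, was 0.52 in the main test, 0.31 with a common total and 0.15 with quantile normalization. Ankrd1 stood at 0.0070 with a common total and Ldb3 at 0.016 with quantile normalization. On leaving out single libraries Fhl1 ran from -0.068 to 0.0015, turning to 0.00066 without FITChigh replicate 1 and to 0.0015 without FITCdim replicate 1.

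All genes higher numbered 41 with a common total, 8 with the common marker sum, 499 with the length slope removed and 67 to 341 without single libraries. All genes lower numbered 4922 with the common marker sum and 1152 to 1672 without single libraries. The median over all genes was -0.20 with a common total and 0.13 with quantile normalization. Paralogs lower numbered 5 with the common marker sum, and paralogs higher 1 with the length slope removed. Other Z-disc genes higher numbered 0 with a common total, 1 with quantile normalization, 0 with the common marker sum, 9 with the length slope removed and 1 to 5 without single libraries. The tests of a count model on recovered reads were not run, and limma-voom was run in their place. The 3 libraries of a gate limit the precision.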
